A study of Macaca mulatta with 6 samples.

Results

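The genes described here are 10 members of the YAP-TEAD branch of the Hippo pathway, taken by gene symbol from the expression tables of rhesus monkey induced pluripotent stem cells (iPSC). They are the coactivator YAP1, its DNA-binding partners TEAD1, TEAD2, TEAD3 and TEAD4, and the target genes CTGF, CYR61, ANKRD1, AMOTL2 and LATS2. Each symbol had 1 row among the 30246 gene rows of each table, and all 10 rows were among the 13685 that were tested. RNA was sequenced from 6 iPSC lines in 3 groups of 2. The female naive and male naive lines were grown in the medium labelled 6SM, which held 15% knockout serum replacement, 4 ng/ml bFGF, 10 ng/ml human LIF, the GSK3 inhibitor CHIR99021 (3 µM), the MEK inhibitor PD0325901 (0.5 µM), the p38 inhibitor SB203580 (10 µM) and the JNK inhibitor SP600125 (10 µM). The male primed lines were grown in the medium labelled hESM, for which the labels list 20% serum replacement and bFGF and none of the other agents. The lines came from fibroblasts, per the series title, and feeder cells had been taken away from the colonies used for RNA. There was no female primed line, and a difference between naive and primed lines cannot be told apart from a difference between the media.

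The Hippo pathway is a kinase cascade in which MST kinases activate LATS kinases, and LATS kinases phosphorylate YAP1 and its paralog WWTR1 (TAZ). Phosphorylated YAP1 is held in the cytoplasm or degraded. Unphosphorylated YAP1 enters the nucleus, binds TEAD proteins, which recognise DNA but activate little alone, and switches on target genes such as CTGF and CYR61. In the mouse blastocyst this branch separates trophectoderm, where Yap1 is nuclear and Tead4 is required, from the inner cell mass. An RNA level shows neither the phosphorylation nor the location of YAP1.

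Levels are given in FPKM (fragments per kilobase, divided by the library's mapped fragments), which can be compared between genes, and differences are on the log2(FPKM + 1) scale with the naive lines on top. The libraries differed in depth. The number of fragments behind a value was estimated from the deposited error bounds. These effective fragments summed to 8294782 and 10013491 for the female naive libraries, to 1754857 and 1478692 for the male naive and to 9970137 and 7607125 for the primed. Of 8 pluripotency markers 5 rose and 0 fell in naive against primed lines, against 6.72% and 4.59% of all tested genes, with a median log2 difference of 2.20. Their summed level was 1458 and 1958 FPKM in female naive and 1007 and 1078 FPKM in male naive lines, against 484 and 403 FPKM in primed lines, and the part of this difference in the results below was not tested. NANOG, a core pluripotency factor, was at 73.8 and 95.9 FPKM in female naive and 28.7 and 30.7 FPKM in male naive lines. In primed lines it was at 0.933 and 2.09 FPKM. TDGF1, a Nodal co-receptor, was at 93.4 and 111 FPKM in female naive and 13.6 and 11.9 FPKM in male naive lines. It was listed at 0 in primed 1 and was at 0.818 FPKM in primed 2. DNMT3B was at 209 and 177 FPKM in female naive, 107 and 114 FPKM in male naive and 33.4 and 41.9 FPKM in primed lines. The names naive and primed are those of the titles, and whether the primed lines are typical of that state was not tested. POU5F1 was at 109 FPKM or more in every library. It was at 738 and 1160 FPKM in female naive and 536 and 571 FPKM in male naive lines, the largest part of each naive sum. SOX2 went the other way, at 85.3 and 100 FPKM in female naive, 114 and 122 FPKM in male naive and 141 and 124 FPKM in primed lines. Without overlap, 5 of the 8 markers lay higher and 1 lower in naive lines, against 18.9% and 15.9% of all tested genes. Each library is labelled as a line of its own with no donor given, and the p-values below therefore rest on the spread among these lines, part of which may be technical.

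In naive lines 5 of the 10 genes rose and 1 fell relative to primed lines. CTGF, CYR61 and ANKRD1, which encode 2 secreted proteins and a nuclear and sarcomeric protein, had the largest rises of the 10, with mean FPKM 7.68, 4.45 and 5.72 times those of primed lines. TEAD3 and TEAD4 rose by smaller amounts, to 2.03 and 2.05 times the primed mean, and TEAD2 fell to 0.687 times the primed mean. YAP1 and TEAD1 had ranges that overlapped between naive and primed lines. In the same limma fit 6.72% of all tested genes rose and 4.59% fell at an adjusted p under 0.05, together 11.3%. At an unadjusted p under 0.05 stood 7 of the 10 genes, against 30.9% of all tested genes. The median log2 difference was 0.78 over the 10 genes and 0.03 over all tested genes, a median that became -0.06 with upper-quartile scaling. That scaling moved the split of all called genes from 920 higher and 628 lower to 693 higher and 878 lower, and called 5 of the 10 genes.

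**Figure D1:**
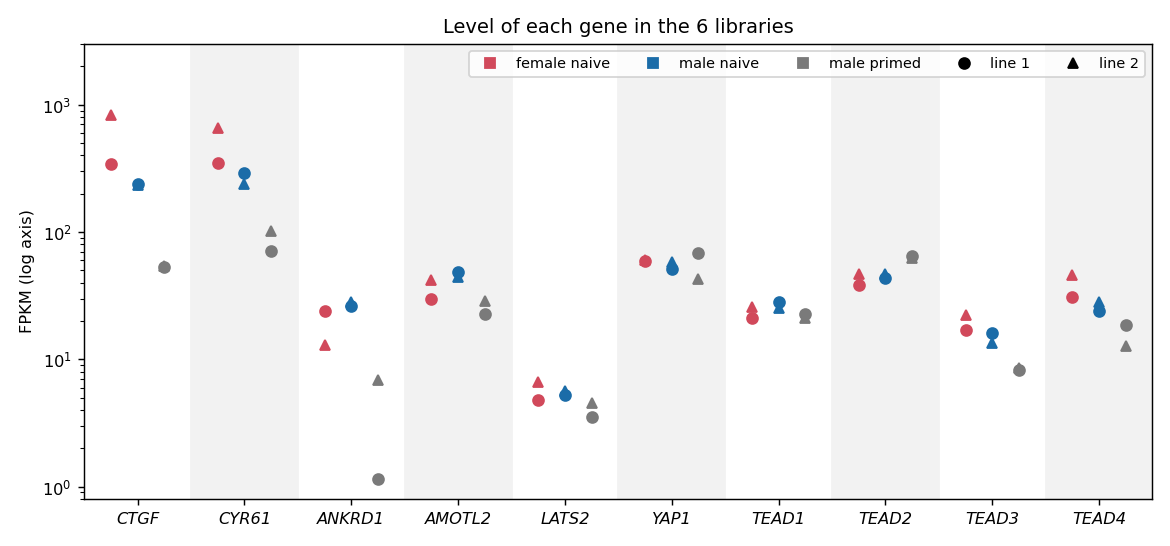
FPKM of the 10 YAP-TEAD genes in each library, on a log axis, with female naive (red), male naive (blue) and primed lines (grey) from left to right within each gene; each circle (line 1) or triangle (line 2) is 1 library. CTGF and CYR61 lie at 233 FPKM or more in all 4 naive libraries and at 102 FPKM or less in both primed libraries, while YAP1 overlaps.

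CTGF (ENSMMUG00000014150, chromosome 4, 131944082 to 131945362), also named CCN2, encodes a secreted matrix-associated protein and is the target most often used to read YAP-TEAD activity. It was at 341 and 824 FPKM in female naive and 239 and 233 FPKM in male naive lines, against 52.6 and 53.9 FPKM in primed lines. All 4 naive libraries lay above both primed libraries, and female naive 2 lay highest. The log2 difference was 2.71 (SE 0.32, limma adjusted p = 0.0102, 95% confidence interval 1.92 to 3.50). With each library left out in turn, the difference ran from 2.39 to 3.03, and the call was lost only without primed 1 (2.69). Each fit of naive against primed lines with 1 library left out called fewer of all tested genes than the full fit. CTGF rested on 328 or more effective fragments in every library.

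CYR61 (ENSMMUG00000013197, chromosome 1, 88364132 to 88366370), also named CCN1, encodes a second secreted protein of the same family, which binds integrins. It was at 350 and 656 FPKM in female naive and 293 and 239 FPKM in male naive lines, against 70.7 and 102 FPKM in primed lines. The naive libraries again lay above both primed libraries, and female naive 2 was again the highest. CYR61 rested on 244 and 85.9 effective fragments in male naive 1 and 2, and on 1533.5 or more in each other library. The log2 difference was 2.05 (SE 0.28, limma adjusted p = 0.0138). The call was lost without male naive 1 (1.98, limma adjusted p = 0.0547), without male naive 2 (2.13, limma adjusted p = 0.0505) and without primed 1 (1.79, limma adjusted p = 0.0764).

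ANKRD1 (ENSMMUG00000006632, chromosome 9, 90442418 to 90451391) encodes an ankyrin repeat protein of the nucleus and the sarcomere and is a common YAP reporter gene in human cells. It was at 23.8 and 13.0 FPKM in female naive and 26.3 and 28.4 FPKM in male naive lines, against 1.16 and 6.85 FPKM in primed lines. ANKRD1 rested on 30 effective fragments in primed 1, 139 in primed 2 and 110 or more in each naive library. The groups did not overlap, but the primed libraries differed 5.92 times from each other and female naive 2, the highest library for CTGF and CYR61, was the lowest naive library here. The log2 difference was 2.48 (SE 0.52, limma adjusted p = 0.0353). It was 1.55 without primed 1 and 3.41 without primed 2, and neither fit holds the spread between the primed libraries. The call was lost without primed 1 and without any 1 naive library. The primed libraries also differed in fibroblast markers, such as the collagen gene COL1A1 at 9.24 FPKM in primed 1 and 135 FPKM in primed 2. COL1A1 was at 42.0 to 153 FPKM in naive lines. The part of fibroblast RNA in the ANKRD1 values was not tested.

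The other target genes were 2 negative regulators of YAP1, and neither was called. AMOTL2 (ENSMMUG00000021694, chromosome 2, 153379993 to 153402599) encodes an angiomotin-family protein that binds YAP1 and keeps it out of the nucleus. It was at 29.9 and 42.1 FPKM in female naive and 48.8 and 44.4 FPKM in male naive lines, against 22.8 and 28.9 FPKM in primed lines. The naive libraries lay above the primed ones by a narrow margin, and the log2 difference was 0.64 (SE 0.18, limma adjusted p = 0.0718, 95% confidence interval 0.20 to 1.08). LATS2 (ENSMMUG00000019006, scaffold 1099548049550, 28210 to 39851) encodes a kinase that phosphorylates YAP1. It was at 4.82 and 6.60 FPKM in female naive and 5.28 and 5.68 FPKM in male naive lines, against 3.54 and 4.52 FPKM in primed lines. The groups again did not overlap, and the log2 difference was 0.39 (SE 0.21, limma adjusted p = 0.259, 95% confidence interval -0.11 to 0.90). Without overlap, 7 of the 10 genes lay higher and 1 lower in naive lines, against 18.9% and 15.9% of all tested genes.

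YAP1 (ENSMMUG00000003396, chromosome 14, 100699435 to 100821271), the coactivator itself, was at 59.7 and 59.7 FPKM in female naive and 51.0 and 57.7 FPKM in male naive lines, against 68.3 and 42.8 FPKM in primed lines. The naive values lay between the 2 primed values. The log2 difference was 0.07 (SE 0.20, limma adjusted p = 0.833), with a 95% confidence interval of -0.40 to 0.55, and its sign turned with the scaling (-0.03 with upper-quartile scaling). A single scaling factor per library cannot move the ratio of CTGF to YAP1 within it. This ratio was 5.72 and 13.8 in female naive and 4.68 and 4.03 in male naive lines, against 0.770 and 1.26 in primed lines. The ratio of CYR61 to YAP1 was 5.86 and 11.0 in female naive and 5.74 and 4.13 in male naive lines, against 1.03 and 2.39 in primed lines. Both ratios were higher in every naive library than in either primed one. These ratios were chosen after the values were seen and were not tested.

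The TEAD genes encode 4 closely related DNA-binding factors. TEAD2 (ENSMMUG00000014791, chromosome 19, 55588025 to 55612333), the form known for expression in the early mouse embryo, was at 38.1 and 47.0 FPKM in female naive and 43.8 and 46.7 FPKM in male naive lines, against 65.3 and 62.5 FPKM in primed lines. Every naive library lay below both primed libraries, and the log2 difference was -0.54 (SE 0.13, limma adjusted p = 0.0486). TEAD3 (ENSMMUG00000015909, chromosome 4, 35197458 to 35209426), a form abundant in human placenta, was at 16.9 and 22.3 FPKM in female naive and 16.0 and 13.5 FPKM in male naive lines, against 8.27 and 8.62 FPKM in primed lines. Its log2 difference was 0.92 (SE 0.17, limma adjusted p = 0.0276), and all naive libraries lay higher. TEAD4 (ENSMMUG00000011299, chromosome 11, 3073387 to 3159297), required for trophectoderm in the mouse, was at 31.1 and 46.0 FPKM in female naive and 24.0 and 28.1 FPKM in male naive lines, against 18.7 and 12.8 FPKM in primed lines. Its log2 difference was 0.97 (SE 0.22, limma adjusted p = 0.0444), again with all naive libraries higher. TEAD1 (ENSMMUG00000010875, chromosome 14, 58976036 to 59148860) was at 21.3 and 25.9 FPKM in female naive and 28.1 and 25.4 FPKM in male naive lines, against 22.9 and 21.1 FPKM in primed lines. TEAD1 overlapped between the groups, with a log2 difference of 0.18 (SE 0.14, limma adjusted p = 0.426, 95% confidence interval -0.16 to 0.52).

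The calls of the 3 TEAD genes were close to the threshold. Whichever of the 6 libraries was left out, none of them stayed called, and fewer of all tested genes were called too. Their differences kept their sign, from -0.61 to -0.46 for TEAD2, 0.83 to 1.02 for TEAD3 and 0.72 to 1.23 for TEAD4. TEAD3 and TEAD4 rested on 17.7 to 35.5 effective fragments in the male naive libraries, against 78.3 to 162 in primed libraries. The relative error taken from the bounds was thus larger in the male naive lines. AMOTL2 and LATS2 also had few effective fragments there, 86.3 and 10.6 for AMOTL2 and 32 and 29 for LATS2.

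**Figure D2:**
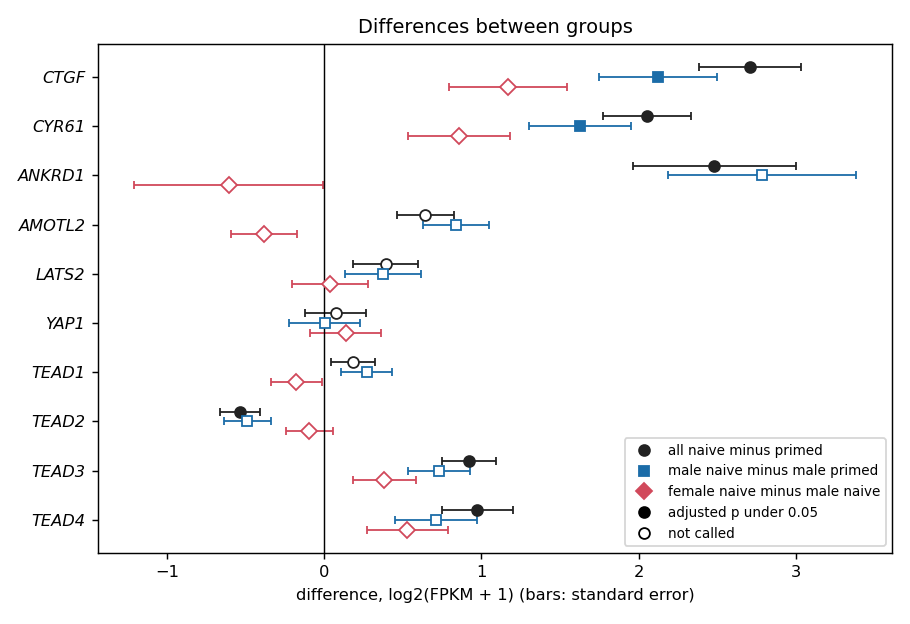
Difference on the log2(FPKM + 1) scale for the 10 genes, with bars of 1 standard error either side and filled points for called genes, in naive against primed, male naive against primed and female naive against male naive lines, from the limma fit over all genes. CTGF, CYR61 and ANKRD1 lie at 2.05 to 2.71 in naive against primed lines, TEAD2 lies at -0.54, and YAP1 lies at 0.07.

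The makeup of the TEAD family differed between the states, while the summed level of the 4 genes overlapped. The sum was 107.4 and 141.2 FPKM in female naive and 111.8 and 113.7 FPKM in male naive lines, against 115.2 and 105 FPKM in primed lines. TEAD2 held 35.5% and 33.3% of that sum in female naive and 39.2% and 41.1% in male naive lines, against 56.7% and 59.5% in primed lines. TEAD2 was the most abundant TEAD transcript in every library, but in primed lines it exceeded the other 3 together and in naive lines it did not. TEAD4 held 29.0% and 32.6% in female naive and 21.4% and 24.7% in male naive lines, against 16.2% and 12.2% in primed lines. TEAD3 held 11.8% to 15.8% in naive lines, against 7.18% and 8.21% in primed lines. The ratio of TEAD4 to TEAD2 was 0.816 and 0.978 in female naive and 0.547 and 0.600 in male naive lines, against 0.286 and 0.204 in primed lines. These shares are within a library, so a single scaling factor per library leaves them as they are. They were computed after the levels were seen and carry no test.

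**Figure D3:**
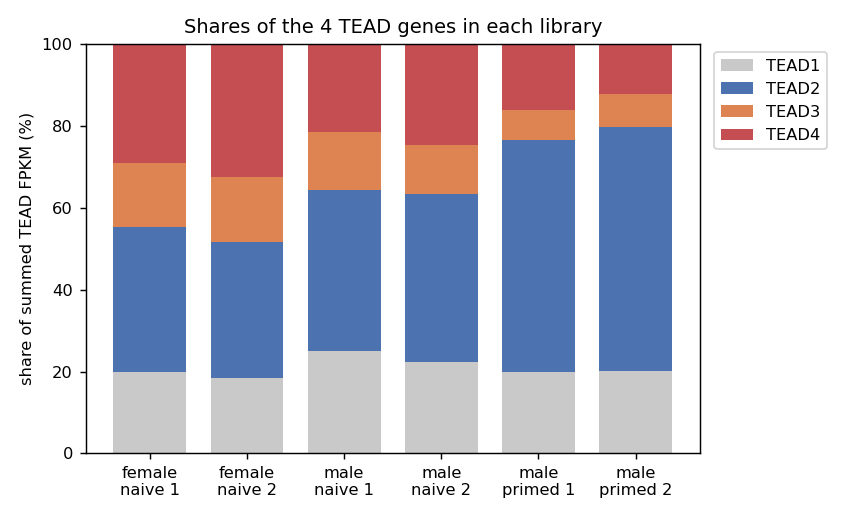
Share of the summed TEAD1 to TEAD4 FPKM held by each gene, in percent, for each of the 6 libraries, with female naive, male naive and primed libraries from left to right. TEAD2 holds 33.3% to 41.1% in naive libraries and 56.7% and 59.5% in primed libraries, and the shares of TEAD3 and TEAD4 are larger in the naive libraries.

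The order of the 10 levels also differed between the states. In naive lines CTGF (409 ± 281 FPKM) and CYR61 (384 ± 187 FPKM; SD, n = 4) led and did not differ beyond their spread. They were followed by YAP1 (57.1 ± 4.13 FPKM), and then by TEAD2 and AMOTL2, whose spreads overlapped (43.9 ± 4.13 and 41.3 ± 8.12 FPKM). In primed lines CYR61 had the highest mean (86.4 ± 22.3 FPKM), but in primed 1 it stood at 70.7 FPKM, near YAP1 and TEAD2 at 68.3 and 65.3 FPKM. TEAD2 (63.9 ± 1.99 FPKM), YAP1 (55.6 ± 18.0 FPKM) and CTGF (53.3 ± 0.866 FPKM; SD, n = 2) followed, and YAP1 could not be separated from either of the others. CTGF was thus near the level of YAP1 in primed lines and above it in every naive line. LATS2 was last in naive lines (5.6 ± 0.758 FPKM), and in primed lines LATS2 (4.03 ± 0.696 FPKM) and ANKRD1 (4.00 ± 4.02 FPKM) could not be separated.

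Male naive and primed lines share the sex, so their comparison keeps sex out of the difference. Here 2 of the 10 genes rose and 0 fell, against 3.97% and 1.42% of all tested genes (5.39% in all), and 7 had an unadjusted limma p under 0.05, against 25.7% of all tested genes. CTGF averaged 236 ± 4.37 FPKM in male naive and 53.3 ± 0.866 FPKM in primed lines (log2 difference 2.13, SE 0.37, limma adjusted p = 0.0331). CYR61 averaged 266 ± 38.2 FPKM in male naive and 86.4 ± 22.3 FPKM in primed lines (log2 difference 1.63, SE 0.32, limma adjusted p = 0.0451). Both calls were lost when any 1 of the 4 male libraries was left out, but each of these fits also called fewer of all tested genes. The difference ran from 2.11 to 2.14 for CTGF and from 1.36 to 1.89 for CYR61. ANKRD1 had the largest difference of the 10, 2.79 (SE 0.60), with 27.4 ± 1.46 FPKM in male naive and 4.00 ± 4.02 FPKM in primed lines, and missed the threshold (limma adjusted p = 0.0541). AMOTL2 differed by 0.84 (limma adjusted p = 0.0732), TEAD3 by 0.73 (0.0882), TEAD4 by 0.71 (0.156), TEAD2 by -0.49 (0.108) and YAP1 by 0.00 (0.994). Without overlap, 8 of the 10 genes lay higher and 1 lower in male naive lines, against 34.8% and 21.6% of all tested genes. The median of all tested genes was 0.09 here and -0.06 with upper-quartile scaling, which changed the split of called genes from 543 higher and 195 lower to 391 and 357 and left a difference of 1.96 for CTGF (limma adjusted p = 0.0451) and 1.46 for CYR61 (0.0612, no longer called). Quantile normalization ended both calls (0.054 and 0.0755).

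Between the sexes within the naive medium, limma called 0 of the 10 genes, against 0.76% of all tested genes higher and 2.55% lower in female lines, 3.31% in all, and 2 of the 10 had an unadjusted p under 0.05, against 21.7% of all tested genes. These were CTGF, at 582 ± 341 FPKM in female naive and 236 ± 4.37 FPKM in male naive lines (log2 difference 1.17, SE 0.37, limma adjusted p = 0.152), and CYR61, at 503 ± 216 FPKM in female naive and 266 ± 38.2 FPKM in male naive lines (0.86, SE 0.32, limma adjusted p = 0.201). The 2 female naive lines differed from each other by 2.41 times in CTGF and 1.87 times in CYR61. Leaving out female naive 1 gave the one call, CTGF with a difference of 1.80. That fit no longer holds the spread between the 2 female naive lines. ANKRD1 was lower, at 18.4 ± 7.63 FPKM in female naive and 27.4 ± 1.46 FPKM in male naive lines (-0.61, limma adjusted p = 0.611). Without overlap, CTGF, CYR61, TEAD3, TEAD4 and YAP1 lay higher and ANKRD1 and AMOTL2 lower in female lines, against 19.4% and 37.6% of all tested genes. The sexes differed in depth. Summed fibroblast markers without VIM were at 293 and 394 FPKM in female naive and 171 and 135 FPKM in male naive lines. The part of depth or of fibroblast RNA in these differences was not tested. With median-of-ratios scaling the split of all called genes moved from 104 higher and 349 lower to 114 and 219.

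Of 22 listed regulators upstream of YAP1 (kinases, scaffolds and junction proteins), all tested, 3 rose and 0 fell in naive against primed lines. Of all tested genes 6.72% rose and 4.59% fell, and the median log2 difference of the 22 was 0.23. Without overlap, 8 of the 22 lay higher and 2 lower in naive lines, against 18.9% and 15.9% of all tested genes. AMOTL1, an angiomotin-family protein related to AMOTL2, was at 69.2 and 109 FPKM in female naive and 69.9 and 73.0 FPKM in male naive lines, against 26.6 and 22.6 FPKM in primed lines (1.65, SE 0.20, limma adjusted p = 0.0103). PTPN14, a phosphatase that binds YAP1 and holds it back, rose by 1.12 (SE 0.16, limma adjusted p = 0.0152), and WWC2, a scaffold that promotes LATS activity, by 1.03 (SE 0.16, limma adjusted p = 0.0181). LATS1, the paralog of LATS2, was at 6.22 to 7.93 FPKM in all 6 libraries (0.26, limma adjusted p = 0.324), and the kinases STK3 and STK4, which encode the MST kinases, differed by 0.23 and -0.13. FAT4, an atypical cadherin that acts at the top of the pathway, was low throughout and differed by -0.88 (limma adjusted p = 0.0659). Without primed 1 the calls of all 3 were lost (limma adjusted p = 0.056 for AMOTL1, 0.0629 for PTPN14 and 0.0822 for WWC2), and PTPN14 and WWC2 were also lost without either male naive line or without female naive 2 (0.0526 to 0.0682).

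Of 5 partners and competitors of YAP1 on TEAD, 3 were tested and 1 rose, against 6.72% of all tested genes. WWTR1, which encodes TAZ, was at 18.9 and 27.4 FPKM in female naive and 13.6 and 13.7 FPKM in male naive lines, against 10.7 and 7.28 FPKM in primed lines. Its log2 difference was 0.92 (SE 0.22, limma adjusted p = 0.0491), a call lost whichever library was left out (0.0759 to 0.149). WWTR1 thus lay below YAP1 in every library. VGLL4, which competes with YAP1 for TEAD, differed by -0.56 (limma adjusted p = 0.214), and VGLL3 by -0.50 (limma adjusted p = 0.502). VGLL1 and VGLL2 were under the limit for testing.

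Further targets were read from a list of genes outside the 10 that respond to YAP across many cell types. Of 17 listed, 16 were in the files and 13 tested, of which 3 rose and 0 fell, against 6.72% and 4.59% of all tested genes, with a median log2 difference of 0.88. They were PTPN14, FJX1 (1.05, SE 0.20, limma adjusted p = 0.0276), a secreted protein of the four-jointed family, and IGFBP3 (1.58, SE 0.38, limma adjusted p = 0.0481), a binding protein of insulin-like growth factors. The FJX1 call was lost whichever library was left out, with differences from 0.94 to 1.16. IGFBP3 ran from 0.98 to 2.19 and stayed called only without primed 2. That fit no longer holds the spread between the primed libraries, which were at 1.09 and 3.83 FPKM. NUAK2, a kinase, differed by 1.09 (limma adjusted p = 0.0586). In male naive against primed lines 2 of these 13 rose, PTPN14 and FJX1, against 3.97% of all tested genes.

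CTGF, CYR61 and ANKRD1 are also induced by SRF with its MRTF cofactors, which respond to actin. Of 16 listed SRF and MRTF genes, 15 were tested, of which 5 rose and 0 fell, against 6.72% and 4.59% of all tested genes, with a median log2 difference of 0.72. VCL, which encodes the focal adhesion protein vinculin, was at 267 and 432 FPKM in female naive and 189 and 181 FPKM in male naive lines, against 55.3 and 66.4 FPKM in primed lines (2.03, SE 0.20, limma adjusted p = 0.00862). CNN1, a calponin of smooth muscle, rose by 2.49 (SE 0.30, limma adjusted p = 0.0104), CNN2 by 1.64 (SE 0.18, limma adjusted p = 0.00968) and FHL2, a LIM-domain cofactor, by 1.68 (SE 0.22, limma adjusted p = 0.0131). The fifth was ACTB, at 0.70 (limma adjusted p = 0.0481). Of the 15, 14 had a positive difference. The exception was ACTA2, at 28.4 and 16.2 FPKM in female naive, 82.2 and 89.1 FPKM in male naive and 53.6 and 82.3 FPKM in primed lines. In female against male naive lines limma called 0 of the 15 higher and 1 lower, against 0.76% and 2.55% of all tested genes. Without primed 1 the calls of VCL, CNN1 and FHL2 were lost (0.0542, 0.0661 and 0.0504), and FHL2 was also lost without either male naive line (0.0527 and 0.053). The other 4 genes of the CCN family, NOV, WISP1, WISP2 and WISP3, were under 1 FPKM in every library except WISP1 in primed 2 (1.45 FPKM). CTGF and CYR61 were thus the members of that family with sizeable levels here.

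**Figure D4:**
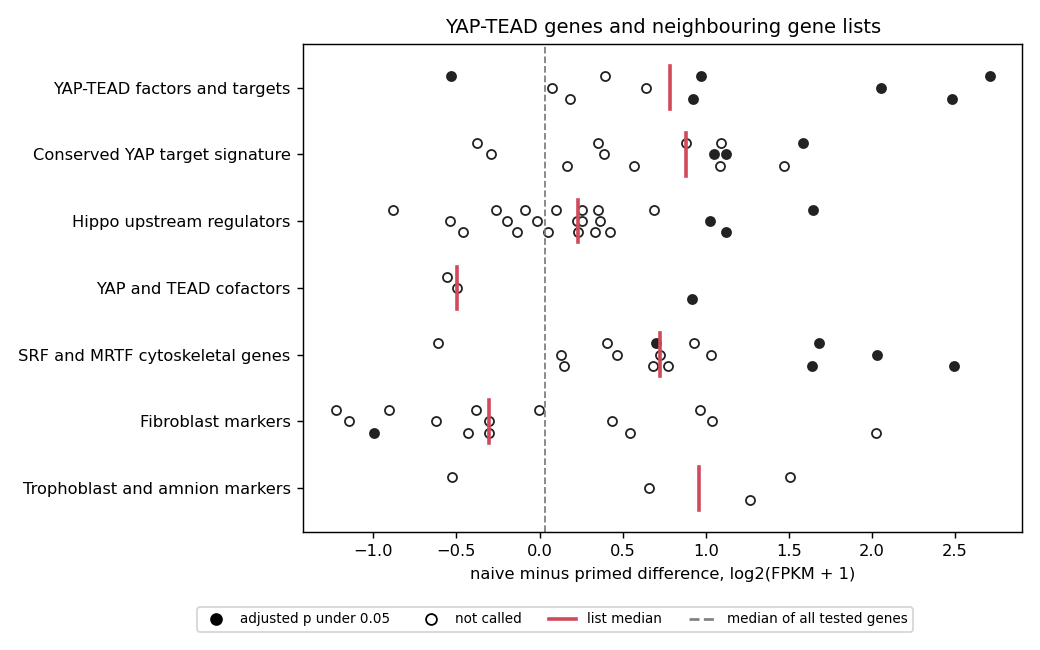
Log2 difference of FPKM + 1 in naive against primed lines for every tested gene of the 10 YAP-TEAD genes and of each neighbouring list, with the list's median as a red bar, called genes filled and a dashed line at the median of all tested genes. The median is 0.78 for the 10 genes, 0.23 for upstream regulators, 0.88 for further YAP targets and 0.72 for SRF and MRTF genes.

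Fibroblasts express CTGF and CYR61 strongly, and these lines came from fibroblasts and were grown with feeder cells. In bulk RNA, fewer cells of a type and less RNA per cell cannot be told apart. Of 19 fibroblast markers, 18 were in the files and 15 tested, of which 0 rose and 1 fell, VIM (-0.99, limma adjusted p = 0.016), and 5 had an unadjusted limma p under 0.05. Of all tested genes 11.3% were called and 30.9% had such an unadjusted p, so these counts lay near the background. The primed libraries differed by more than 5 times in 8 of the 18 markers, which leaves few calls possible. The counts therefore do not show like fibroblast levels in naive and primed lines. The VIM call held only without primed 2 (0.0228, and 0.0518 to 0.0656 without any other library). The summed level of the 18 was 480.3 and 600.8 FPKM in female naive and 622.6 and 507.6 FPKM in male naive lines, against 704.2 and 894.1 FPKM in primed lines. VIM, which stem cells also express, made up 187 and 207 FPKM of the sum in female naive and 451 and 373 FPKM in male naive lines, against 642 and 501 FPKM in primed lines. Without VIM the sum was 293 and 394 FPKM in female naive and 171 and 135 FPKM in male naive lines, against 61.9 and 393 FPKM in primed lines. DCN and FAP were listed at 0 in both male naive lines, S100A4 in male naive 2 and POSTN in primed 1. THY1, a surface protein of fibroblasts that primate stem cells also carry, differed by 2.02 (limma adjusted p = 0.0652). Without primed 2 the difference was 3.00.

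The primed libraries differed in these markers, since 15 of the 18 were higher in primed 2 than in primed 1 and 8 of them by more than 5 times. COL1A1, a fibroblast collagen, was at 135 FPKM in primed 2 and 9.24 FPKM in primed 1. A high level was not particular to primed 2, since COL1A1 was at 95.7 and 153 FPKM in female naive lines. In male naive lines it was at 53.1 and 42.0 FPKM. For the 10 genes, the ratio of primed 2 to primed 1 was 5.92 for ANKRD1, 1.45 for CYR61, 1.28 for LATS2 and 1.27 for AMOTL2. It was 1.04 for TEAD3, 1.02 for CTGF, 0.957 for TEAD2 and 0.922 for TEAD1. TEAD4 and YAP1 were lower in primed 2, at ratios of 0.683 and 0.627. The part of fibroblast RNA in the levels of the 10 genes was not tested.

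TEAD4 and YAP1 also act in trophoblast. Of 10 trophoblast and amnion markers 4 were tested, and limma called 0, with 1 at an unadjusted p under 0.05, against 11.3% and 30.9% of all tested genes. Of the 4, 3 had a positive difference, with a median of 0.96. Without overlap, 2 of the 4 lay higher and 0 lower in naive lines, against 18.9% and 15.9% of all tested genes. CGA differed by 1.26, TFAP2A by 0.66 and CDX2 by -0.53. CGA was at 8.24 FPKM in female naive 1. The summed level of the 10 markers was 28.2 and 9.29 FPKM in female naive and 17.8 and 17.5 FPKM in male naive lines, against 13.5 and 7.62 FPKM in primed lines. ELF5 was listed at 0 in 5 of the 6 libraries. In primed 1 most of the sum was CDX2, at 12.7 FPKM against 0.188 FPKM in primed 2, and 8 of the 10 markers were listed at 0. KRT7, a keratin of trophoblast and other epithelia, differed by 1.50 (limma adjusted p = 0.107). Without primed 2 the difference was 2.37. The part of trophoblast RNA in the TEAD4 and YAP1 levels was not tested.

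The genes most like each target in their pattern over the 6 libraries were taken among 8526 named genes with a mean of 5 FPKM or more, by Pearson's r of log2(FPKM + 1). For CTGF they were KCMF1 (0.999), C14ORF4 (0.999) and ZYX (0.998). ZYX, which encodes the focal adhesion protein zyxin, was at 105 and 188 FPKM in female naive and 81.0 and 78.2 FPKM in male naive lines, against 22.4 and 22.6 FPKM in primed lines. TEAD3 (r = 0.991) and CYR61 (r = 0.988) stood at ranks 24 and 28 in likeness to CTGF. For CYR61 the closest were CHST8 (0.998), EZR (0.998), which encodes the membrane to actin linker ezrin, and WWC2 (0.997). For ANKRD1 they included PSMA4 (0.997) and ISCA1 (0.993), and its r with CTGF was 0.687. For AMOTL2 they were KIAA1919 (0.992), DST (0.988) and YWHAH (0.986), and for YAP1 TRUB2 (0.997), ST8SIA3 (0.986) and USP36 (0.978). YAP1 had an r of 0.23 with CTGF and 0.085 with CYR61. These correlations share the 6 libraries and their 3 groups and are given as a description.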

How the data were processed

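The authors' deposited tables hold FPKM per gene with lower and upper bounds, per the file headers, for 6 bulk RNA-seq libraries. TopHat 1.3.0 was the aligner, per the submitters' processing notes. Coordinates are as the files give them, because the build is not given in the sources used here, nor the annotation or the quantifier. No scaling between libraries is stated. Groups came from titles and the sex label. The bounds stand 2 SD from each FPKM, which gives effective fragments as (2 × FPKM / (upper bound - FPKM)) squared. They do not cover the spread between lines. They may hold more than counting error, since effective fragments did not always follow level. AMOTL2 had 86.3 and 10.6 of them at 48.8 and 44.4 FPKM in male naive 1 and 2.

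Tested rows, 13685 in number, had 1 FPKM or more in 2 or more libraries, and 40 rows of failed status were left out. The fit, by limma 3.58.1 (R 4.3.3), used log2(FPKM + 1), which understates changes of low genes, with 1 mean per group, 3 residual degrees of freedom and a trend. Tests were two-sided, with Benjamini-Hochberg adjustment over all tested genes and calls at 0.05. The fit was also run on simulated data that followed its own model. These data had the same spread per gene in every library, so unequal depth was not checked. Naive against primed is the mean of both naive group means minus primed.

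All 10 genes are named. Of each list, up to 4 genes with the smallest p are named, and also WWTR1 and LATS1. ACTB, ACTA2, COL1A1, STK3, STK4, POU5F1, SOX2, ELF5 and fibroblast markers at 0 are given outside that rule, after their values were seen. So are VGLL1, VGLL2, NOV, WISP1, WISP2 and WISP3, which were not tested. The genes and lists were chosen with earlier results of these data known. NANOG, FJX1 and CNN2 had no symbol in the deposited data and were matched through a separate list of gene names. NANOG had 2 candidate rows, and the row with the higher mean FPKM was used. For each of 5 genes the 3 named genes most like it in pattern are given, except 1 that is not reported here. Promoter sequence was not analysed here.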

Additional observations from a re-analysis of the deposited data

How the results depend on the processing

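CTGF, CYR61, ANKRD1, AMOTL2, LATS2 and the 4 TEAD genes kept the sign of their naive against primed difference under all 19 alternatives, and CTGF stayed called in 16, CYR61 in 14, TEAD3 in 9, ANKRD1 in 8, TEAD2 in 5 and TEAD4 in 4. Of 6 genes called among the 10 (1548 of all), 0 (137 of all) were called with no filter on low values and 3 (941) when rows at 0 everywhere were left out, which was chosen after seeing the data. Ignoring sex gave 0 (250), leaving out both male naive lines 2 (625), and no trend 3; in the fits with 0 calls, 7 had an unadjusted limma p under 0.05. For male naive against primed, 2 genes (738 of all) became 0 (86) with no filter, 0 (400) without rows at 0, 1 with a pseudocount of 0.1, upper-quartile or median-of-ratios scaling, and 0 with quantile normalization or no trend. For female against male naive, 453 calls (104 higher, 349 lower) became 265 (143 and 122) with no filter and 268 (71 and 197) without rows at 0. Same-numbered lines did not deviate together (r = -0.06, -0.05 and -0.26), so numbers were not taken as pairs; a replicate block gave 2 (812 of all), 1 (373) and 0 (207) calls in the 3 comparisons, and crossing the female numbers, added later, 5 (1270), 2 (593) and 0 (298). With 1 library left out, calls ran from 0 to 3 (177 to 1081 of all), 0 to 2 (51 to 626) and 0 to 1 (41 to 523). The lone library of a group is then assumed to vary like the others.

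Some signs turned. YAP1 in naive against primed lines was -0.031 with upper-quartile scaling and -0.072 with quantile normalization, and ran from -0.26 (without primed 2) to 0.40 with 1 library left out. In male naive against primed lines it was -0.16, -0.11 (median-of-ratios), -0.21 and -0.00077 (precision weights), and ran from -0.33 (without primed 2; -0.083 without male naive 2) to 0.34. TEAD2 in female against male naive lines was 0.032, 0.054 and 0.032 under the 3 scalings and ran from -0.24 to 0.054 (without female naive 1) with 1 library left out, and LATS2 from -0.16 (without female naive 2; -0.0059 without male naive 1) to 0.23. CDX2 ran from -2.29 to 1.24 (without primed 1) and VGLL3 from -1.26 to 0.27 (without primed 2) in naive against primed lines. The cause was not tested. Depth limits the male naive values most, at a median of 40.0 and 33.2 effective fragments per tested gene, against 179.0 to 225.1 elsewhere.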

Other observations

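Among the targets, the balance between genes varied from library to library. The ratio of CTGF to CYR61 was 0.975 and 1.26 in female naive and 0.816 and 0.974 in male naive lines, against 0.745 and 0.527 in primed lines. It was higher in every naive library than in either primed library. The ratio of ANKRD1 to CTGF was 0.0696 and 0.0158 in female naive and 0.110 and 0.122 in male naive lines, against 0.0220 and 0.127 in primed lines, so that primed 2 lay with the male naive lines and primed 1 with the female naive lines. The ratio of TEAD3 to TEAD2 was 0.443 and 0.474 in female naive and 0.364 and 0.288 in male naive lines, against 0.127 and 0.138 in primed lines. These within-library ratios were chosen after the values were seen and were not tested.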
